A study of Mus musculus with 18 samples.

Results

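Transcripts of 32 genes that act in the cell division cycle were followed in mouse intestine and in carcinogen-induced tumours. The genes were taken from a list of 12 genes of DNA replication, 1 cyclin of the G1 to S transition and 19 genes of mitosis, and a probe was assigned to a gene through its RefSeq accession. A probe was found for 31 of the 32 genes, among 26073 genes tested on the arrays. Rrm2, which encodes the small subunit of ribonucleotide reductase, was not analysed here. All 31 genes passed the filter on dim probes, which required signal well above background on the 3 arrays of at least 1 group, and 29 of them were above background on all 18 arrays. The exceptions were Aurkb and Cdc6. Aurkb passed the filter through control tumours alone, the group where it was highest, so its differences from other groups are given as values and counts are also given without it. None of the 31 probes was saturated.

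All samples came from male C57BL/6 mice. Their chow was a control diet or contained the herb St. John's wort (SJW), and they were given saline or the carcinogen azoxymethane (AOM), which causes bowel tumours in rodents. The 6 groups of 3 arrays were non-tumour tissue after saline on the control diet (control saline) and on the SJW diet (SJW saline), non-tumour tissue after AOM on each diet (control AOM and SJW AOM), and tumours after AOM on each diet (control tumour and SJW tumour). Ages, doses and times are not given in the sources used here, and no group carries a transgene or mutation that the labels name. Sample RNA was read in red against 1 green pool on every array, made of Swiss Webster RNA from embryos and several organs, thymus, spleen and the gonads among them, and dyes were not swapped. Values are log2 of red over green, so a value of 1 is 2 times the level of the pool, and a change is a difference of group means with its standard error (SE) and 3 arrays a group. Levels of different probes are not compared. In the design text of the series the 3 arrays of a group are biological replicates.

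The labels name the small intestine as the tissue, while the extraction text names liver. Markers of hepatocytes were low in every group (group means of -1.90 to -1.57), those of the intestinal epithelium high (2.83 to 4.21), and those of colonocytes, the absorptive cells of the colon, reached 3.81 to 4.95 in non-tumour tissue. The non-tumour arrays lay on 3 slides, 1 array of each of the 4 groups on each, and the tumour arrays on 2 further slides scanned on another day, so tumour and slide or scan day cannot be told apart. Red signal had array medians of 133 to 375 in non-tumour tissue and of 336.5 to 786.5 in tumours. The reference channel was brighter on 6 arrays than on the rest, 4 of them after saline. Pancreatic acinar markers stood at 3.72 on SJW AOM replicate 3, against -3.06 to 1.46 on the other 17 arrays; without that array the median change of the 31 genes after AOM on the SJW diet was 0.17 in place of 0.27.

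As background, a cell that commits to divide first turns on genes for copying DNA and later those for separating the copies. The minichromosome maintenance proteins Mcm2 to Mcm7 form the ring that unwinds DNA, loaded on chromatin by Cdc6 and Cdt1. Pcna is the sliding clamp of the polymerases, and Rrm1 and Tyms supply nucleotides. Entry into mitosis is driven by Cdk1 with cyclins B and A, and the kinases Plk1, Aurka, Aurkb, Bub1, Bub1b and Ttk, the motor proteins of the Kif family and the centromere proteins Cenpa and Cenpe then build the spindle and check the attachment of chromosomes. Cdc20 activates the complex that starts the separation of chromosomes, Top2a untangles DNA, Birc5 (survivin) works with Aurkb, Foxm1 switches on mitotic genes, and Mki67 encodes the Ki-67 protein used to mark dividing cells. In the intestine such cells lie in the crypts, below a surface of cells that no longer divide.

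Promoter sequences are shown because both classes of genes are known for shared promoter elements. RefSeq windows of 250 bases before to 50 after the start of transcription (GRCm38.p6) were matched for 27 of the 32 genes by symbol, leaving Aurkb, Ccna2, Foxm1, Kif20a and Mcm4 unmatched. They were searched on both strands for the cell cycle homology region (CHR, as TTTGAA and its other form TTCGAA), for the CCAAT box, and for the E2F motif, which was written as TTCCCGC, in a second form as TTCGCGC and in a last form as TTGGCGC. Of 15 windows of mitosis genes 12 held a CHR match (80%), against 2 of 12 windows of replication genes (16.7%, with 2 windows for Mcm7 and 1 for Rrm2) and 19.2% of all 32851 windows. E2F matches were found in 3 of the 15 mitosis windows (20%) and in 8 of the 12 replication windows (66.7%), against 8.07% of all. CCAAT was present in 14 of 15 (93.3%) and 9 of 12 (75%), against 37.4% of all. An E2F match overlapped a CCAAT match in 2 windows of these genes, those of Mcm7 and Ccnb1. Matching letters are a description and do not show binding. The 250 bases before the start are given for 3 mitosis genes that were higher in tumours or after AOM (Cdc20, Cdk1 and Top2a) and 2 replication genes that were higher in tumours (Cdc6 and Mcm5). Capitals mark every CHR, CCAAT and E2F match, 5′ to 3′ on the strand of the gene.
Cdc20: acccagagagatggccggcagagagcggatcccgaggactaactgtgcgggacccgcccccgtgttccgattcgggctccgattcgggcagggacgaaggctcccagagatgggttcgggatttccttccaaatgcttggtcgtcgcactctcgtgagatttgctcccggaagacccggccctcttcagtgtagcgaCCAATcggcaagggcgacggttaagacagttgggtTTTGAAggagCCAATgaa
Cdk1: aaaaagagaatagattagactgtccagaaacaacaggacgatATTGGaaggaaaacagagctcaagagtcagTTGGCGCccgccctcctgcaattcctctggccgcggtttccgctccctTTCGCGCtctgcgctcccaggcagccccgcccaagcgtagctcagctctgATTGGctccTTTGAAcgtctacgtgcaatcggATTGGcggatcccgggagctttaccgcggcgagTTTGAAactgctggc
Top2a: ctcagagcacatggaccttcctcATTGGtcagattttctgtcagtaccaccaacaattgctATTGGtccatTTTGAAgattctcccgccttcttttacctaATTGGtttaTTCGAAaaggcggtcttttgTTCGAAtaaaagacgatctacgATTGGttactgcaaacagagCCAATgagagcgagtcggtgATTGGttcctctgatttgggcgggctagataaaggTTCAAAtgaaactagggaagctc
Cdc6: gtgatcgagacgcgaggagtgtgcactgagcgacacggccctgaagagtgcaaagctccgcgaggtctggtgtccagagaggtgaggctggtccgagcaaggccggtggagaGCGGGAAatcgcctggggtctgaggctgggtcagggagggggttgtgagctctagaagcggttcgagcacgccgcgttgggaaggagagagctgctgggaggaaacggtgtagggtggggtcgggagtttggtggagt
Mcm5: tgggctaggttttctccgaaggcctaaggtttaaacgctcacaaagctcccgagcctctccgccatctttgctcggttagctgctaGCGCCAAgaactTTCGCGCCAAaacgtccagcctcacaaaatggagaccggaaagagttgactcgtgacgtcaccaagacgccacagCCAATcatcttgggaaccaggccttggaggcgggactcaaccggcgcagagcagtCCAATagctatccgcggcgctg
They lie at chr4:118437344-118437593 and chr10:69352913-69353162 on the minus strand, chr11:99024190-99024439 on the minus strand, chr11:98907901-98908150 on the plus strand and chr8:75109259-75109508 on the plus strand of GRCm38.p6. Cdc20 has a CHR with a CCAAT on each side, and Top2a has 4 CHR and 6 CCAAT matches. Cdk1 holds all 3 kinds of motif, with 2 E2F matches upstream of both of its CHR matches. In Mcm5, 3 E2F matches lie upstream of the CCAAT matches, with no CHR match in the window, and Cdc6 has 1 E2F match alone.

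The replication genes averaged 0.12 ± 0.18 (SD, n = 3 arrays) in control saline, 0.66 ± 0.24 in control AOM and 0.88 ± 0.19 in control tumour, and on the SJW diet 0.11 ± 0.14, 0.40 ± 0.15 and 0.59 ± 0.20. The mitosis genes averaged -0.44 ± 0.06, -0.04 ± 0.03 and 0.24 ± 0.15 on the control diet, and -0.36 ± 0.11, -0.15 ± 0.07 and -0.09 ± 0.18 on the SJW diet. On the control diet both classes thus lay lowest after saline and highest in tumours, and the saline arrays overlapped neither those after AOM nor the tumours. In bulk tissue a larger share of dividing cells and more transcript in each dividing cell cannot be told apart.

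**Figure D1:**
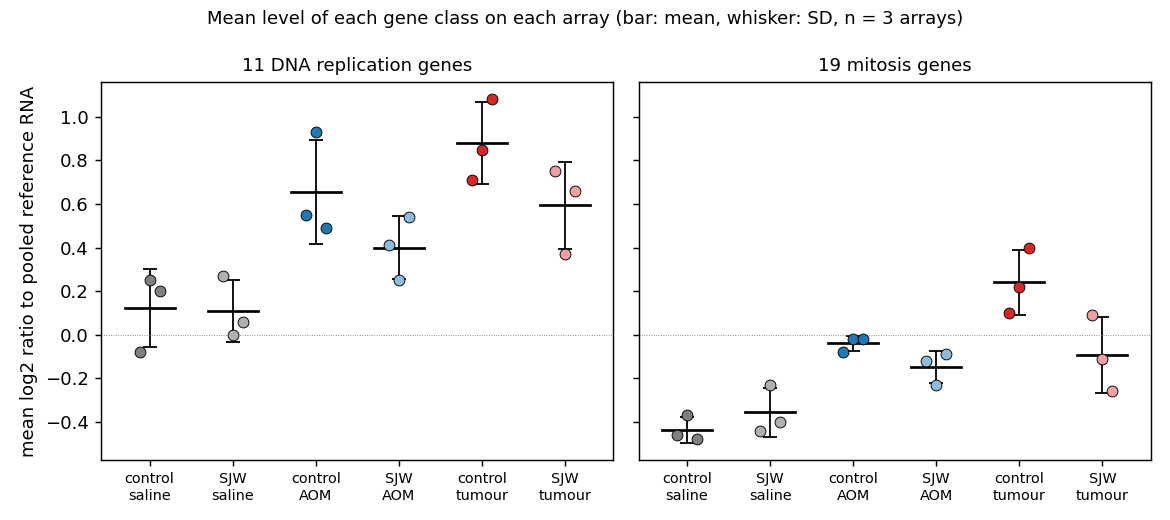
Mean log2 ratio to the reference pool (y axis) of the 11 DNA replication genes (left) and the 19 mitosis genes (right) on each array, in 6 groups (x axis). Points are arrays, bars group means and whiskers SD of 3 arrays; control saline arrays lie at -0.08 to 0.25 (replication) and -0.48 to -0.37 (mitosis), below control tumours at 0.71 to 1.08 and 0.10 to 0.40.

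**Figure D2:**
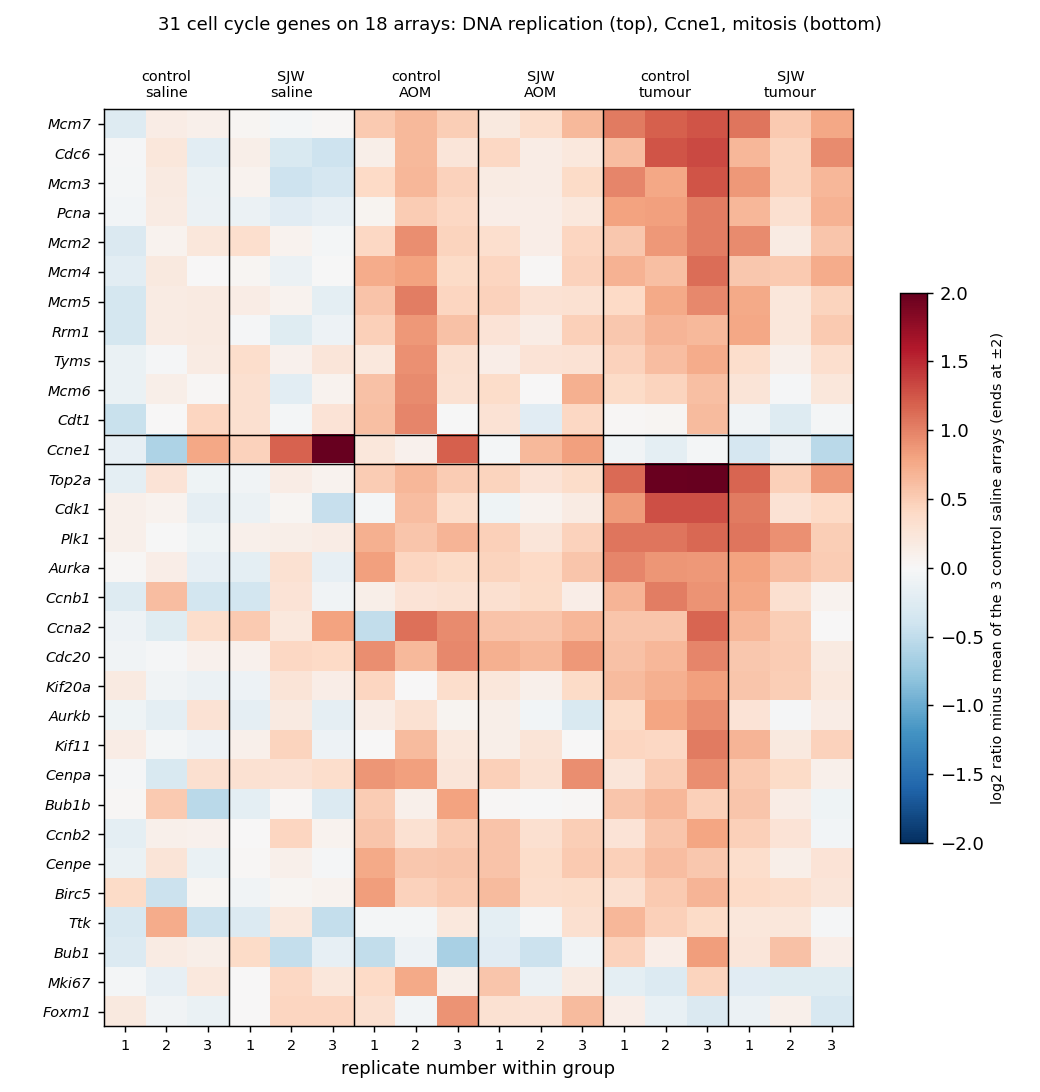
Log2 ratio of 31 genes (lines) on 18 arrays (columns, by group and replicate number) minus the gene's mean over the 3 control saline arrays, with colours ending at ±2. Red is higher than control saline; Top2a and Mcm7 are reddest by their mean in control tumours, while Mki67 and Foxm1 are near the saline level there, and Ccne1 on SJW saline replicate 3 lies beyond the scale.

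After AOM on the control diet, 3 genes rose in non-tumour tissue, all of them mitotic. Cdc20 was 1.79-fold higher, at -1.39, -1.33 and -1.22 on the saline arrays and -0.38, -0.67 and -0.36 after AOM (change 0.84 ± 0.15, limma adjusted p = 0.0197 over all genes). Plk1, the kinase that drives entry into and exit from mitosis, went from -1, -1.10 and -1.19 to -0.38, -0.54 and -0.42 (0.65 ± 0.14, adjusted p = 0.0403). Cenpe, a motor protein that carries chromosomes to the spindle equator, went from -1.12, -0.74 and -1.12 to -0.23, -0.45 and -0.44 (0.62 ± 0.13, adjusted p = 0.036). In none of these 3 genes did the saline and AOM arrays overlap. The share of all genes called higher was 0.472%, and 0.127% were called lower.

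The changes of the other genes after AOM on this diet were mostly of the same sign without passing the test. Of 31 changes 30 were positive, with a median of 0.51 against -0.01 over all genes, and arrays of the 2 groups did not overlap in 15 genes, all higher (9.53% of all genes were higher without overlap and 8.24% lower). All 11 replication genes had positive changes, from 0.33 ± 0.14 for Pcna to 0.67 ± 0.20 for Mcm5. By limma 0 were called and 9 were at an unadjusted p under 0.05 (81.8%, against 13.6% of all genes). Among them Rrm1 was at 0.64 ± 0.17 (adjusted p = 0.0886) and Mcm4, a helicase subunit, at 0.65 ± 0.17 (adjusted p = 0.086). Bub1, a checkpoint kinase, was the exception at -0.42 ± 0.23 on the probe used and 0.28 on its other probe. Within the 3 slides the median change was 0.73, 0.70 and 0.37 for the replication genes and 0.44, 0.40 and 0.55 for the mitosis genes.

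None of the helicase genes Mcm2 to Mcm7 passed after AOM on this diet, though in each of them the 3 AOM arrays lay above the 3 saline arrays. Mcm4 was at 0.19, 0.59 and 0.40 after saline and at 1.13, 1.20 and 0.78 after AOM on the control diet, and Mcm5 at -0.01, 0.50 and 0.52 and at 0.90, 1.36 and 0.77. Control AOM replicate 2 was the highest of the 3 in each of Mcm2 to Mcm7 and in Pcna, Rrm1, Cdc6, Cdt1 and Tyms. It was the only AOM non-tumour array with a bright reference channel (median 593, against 198 to 263.5 on the others). In each group with bright and other arrays, the bright ones had the higher replication means. The reason was not tested. Rrm1, the large subunit of ribonucleotide reductase, was at -0.99, -0.48 and -0.46 after saline and at -0.17, 0.22 and -0.06 after AOM. Cdt1, which licenses origins together with Cdc6, ranged more widely, at 0.61, 1.06 and 1.49 and at 1.65, 2.03 and 1.05, and the groups overlapped.

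Further mitosis genes lay above the saline range after AOM without passing the test. Aurka was at -1.43, -1.33 and -1.62 after saline and -0.64, -1.03 and -1.07 after AOM (0.54 ± 0.15, adjusted p = 0.108). Birc5, an inhibitor of cell death that also serves in mitosis, was at 0.24, -0.56 and -0.09 and at 0.70, 0.33 and 0.38 (0.61 ± 0.17, adjusted p = 0.11). Ccnb2, a B-type cyclin, and Top2a showed the same separation, at 0.45 ± 0.17 and 0.55 ± 0.21. On the other probe of Top2a the change was 0.08, and the groups overlapped. Ccnb1, Ttk and Kif20a overlapped between the groups on the probes used, at 0.23 ± 0.24, 0.04 ± 0.25 and 0.26 ± 0.15. In Ccnb1 and Ttk the second saline array, at -0.88 and -0.45, was above all 3 AOM arrays. On the other, dimmer probes of Ccnb1 the groups did not overlap, with a change of up to 0.71. Each of those probes was above background on 2 of 3 saline arrays.

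With slide as a block, which here is the same as the replicate number, Cdc20 stayed under the threshold (adjusted p = 0.0321) and Plk1 (0.0534) and Cenpe (0.0652) did not. Leaving out single arrays left 0 to 2 of the 3 calls: 0 without control saline replicate 1 or control AOM replicate 1, 1 without control saline replicate 2, control saline replicate 3 or control AOM replicate 2, and 2 without control AOM replicate 3. When arrays were only centred on their medians, without loess, the median change was 0.79 and 8 genes were higher, among them Mcm4, Mcm6, Mcm7 and Rrm1.

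Smooth muscle markers moved in the same comparison, with all 13 positive at a median of 2.09. Array means were -1.25 to 0.78 after saline and 0.86 to 2.33 after AOM. By limma 0 passed and 13 were at an unadjusted p under 0.05, as were 13.6% of all genes. All 10 fibroblast markers were positive too (median 1.08, 0 called, 8 at an unadjusted p under 0.05), while epithelial markers had a median change of 0.05. Among 6 crypt stem cell markers, from the zone where the epithelium divides, the median was 0.66, 4 were positive and 1 was called higher (Cd44, 1.49 ± 0.31). All 8 macrophage markers were positive (median 0.43, 0 called, 3 at an unadjusted p under 0.05), and all 9 colonocyte markers were negative (median -0.40), with Slc37a2 called lower. The part of these cells in the changes of the cell cycle genes was not tested.

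On the SJW diet, AOM left the 31 genes with a median change of 0.27, against -0.02 over all genes, and 25 were positive. No gene passed the limma test (0 of 31), where 0.66% of all genes were called higher and 0.483% lower. At an unadjusted p under 0.05 were 10 of the 31 (32.3%, against 19.3% of all genes), 9 of them higher. The remaining gene was Ccne1, at -1.11 on the probe used and 0.28 on its other probe. The highest change was that of Aurka, the centrosome kinase, which went from -1.66, -1.15 and -1.62 to -1.01, -1.06 and -0.91 (0.48 ± 0.15, adjusted p = 0.114). Cenpe was at 0.46 ± 0.13 (adjusted p = 0.0775), the lowest adjusted p among these genes. The 2 groups did not overlap in 12 genes, all higher (12.8% of all genes were higher without overlap and 15.6% lower). Cdc20, at -1.23, -0.90 and -0.91 after saline, was at -0.61, -0.67 and -0.44 after AOM (0.44 ± 0.15, adjusted p = 0.126). Plk1 changed from -0.99, -0.98 and -0.95 to -0.62, -0.85 and -0.63, a difference of 0.27 ± 0.14. Smooth muscle markers were again positive in 13 of 13 (median 1.90, 0 called, 12 at an unadjusted p under 0.05), and 2 of 10 fibroblast markers were called higher (Dcn and Col1a1, list median 1.39). Of 8 macrophage markers 3 were called higher (Lyz2, C1qa and C1qc, list median 0.84, all 8 positive), of 8 T cell markers 1 (Cd2, list median 0.56, 6 at an unadjusted p under 0.05), and of 9 colonocyte markers 2 were called lower (Slc37a2 and Slc26a3, list median -1.28). Crypt stem cell markers had a median of -0.05, with 0 of 6 called and 2 at an unadjusted p under 0.05. The part of these cells was not tested.

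A direct test of the AOM change between diets called 0 of the 31 genes and 0 of all genes by limma (1 and 2457 at an unadjusted p under 0.05). In 26 of the 31 genes the AOM change was smaller on the SJW diet, with a median difference of -0.24. Cdc20 differed by -0.40 ± 0.21 and Plk1 by -0.38 ± 0.19 (adjusted p = 0.552 and 0.546). The largest difference was that of Ccne1, the gene at an unadjusted p under 0.05, at -1.62 ± 0.73.

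Against AOM tissue of the same diet, 11 genes rose and 0 fell in control tumours, where 12.7% of all genes were called higher and 19.5% lower. Without the dim Aurkb it was 10 of 30. Top2a rose most, 2.21-fold, from -0.14, 0.03 and -0.13 to 0.50, 1.34 and 1.35 (1.14 ± 0.21, adjusted p = 0.000864). Bub1 rose by 0.89 ± 0.23 (adjusted p = 0.00778) and Cdk1, the kinase that triggers mitosis, by 0.83 ± 0.21, from -0.16, 0.49 and 0.23 to 0.72, 1.16 and 1.17 (adjusted p = 0.00722). Each of the 3 control tumours was above every control AOM array in these 3 genes. In Bub1, control AOM tissue had itself been below control saline tissue on the probe used (group means -0.08 and 0.33).

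The mitosis genes Plk1, Ccnb1 and Kif20a also rose in control tumours by smaller amounts. Plk1 reached -0.03, -0.03 and 0.05 (0.44 ± 0.14), Ccnb1, a cyclin partner of Cdk1, rose by 0.64 ± 0.24 and Kif20a, a motor protein of cytokinesis, by 0.46 ± 0.15. Aurkb, the kinase of the chromosomal passenger complex, was called at 0.53 ± 0.17, on a probe above background on 2 of 3 control AOM arrays and all 3 control tumours; 10 other settings or omitted arrays ended its call, with values from 0.08 to 0.69 over all of them. Replication genes that rose were Cdc6 (0.73 ± 0.21), Mcm7 (0.61 ± 0.15), Pcna (0.56 ± 0.14) and Mcm3 (0.49 ± 0.16). Cdc6 was read on a probe above background on 2 of 3 control AOM arrays and all 3 control tumours. Other settings or omitted arrays ended the call of Ccnb1 10 times, Cdc6 7, Mcm3 5, Kif20a 4, Plk1 3, and Mcm7 and Pcna 1 each. Mcm7 went from -0.73, -0.61 and -0.77 to -0.21, -0.06 and 0.00, and Pcna from -0.41, 0.04 and -0.04 to 0.35, 0.36 and 0.57, with no overlap in either gene. Arrays did not overlap in 12 genes that were higher, 11 without Aurkb (17.9% of all genes), and in Ccne1, which was lower (24.8%).

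The remaining replication genes lay close to their level in control AOM tissue. Mcm2, Mcm4, Mcm5, Mcm6, Rrm1, Tyms and Cdt1 had changes of -0.29 to 0.22, none called. Cdc20 and Cenpe, which rose after AOM, did not pass here: Cdc20 was at -0.73, -0.65 and -0.34 in control tumours, a difference of -0.10 ± 0.15, and Cenpe differed by -0.08 ± 0.13. Birc5 and Cenpa, at 0.61 ± 0.17 and 0.65 ± 0.22 after AOM without passing the test, were at -0.10 ± 0.17 and -0.08 ± 0.22. Mki67 and Foxm1 leaned the other way, at -0.43 ± 0.21 (adjusted p = 0.135) and -0.48 ± 0.21 (adjusted p = 0.0913). Mki67 was at 2.02, 2.37 and 1.73 in control AOM tissue and at 1.43, 1.35 and 2.06 in the tumours, overlapping on 1 tumour array. The 2 probes of Mki67 differed in sign here (-0.43 and 0.13).

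In the SJW groups, 2 of the 31 genes rose in tumours over AOM tissue and 0 fell (9.19% of all genes higher, 15.5% lower). Plk1 rose by 0.43 ± 0.14 (adjusted p = 0.0288), with tumours at -0.02, -0.18 and -0.61. Pcna, at -0.33, -0.32 and -0.25 in SJW AOM tissue and 0.21, -0.14 and 0.23 in tumours, rose by 0.40 ± 0.14 (adjusted p = 0.0462). Bub1 was at 0.56 ± 0.23, Cdk1 at 0.53 ± 0.21 and Top2a at 0.47 ± 0.21 (adjusted p = 0.0859, 0.0795 and 0.115), and the groups did not overlap in any of the 3. Among all 31 genes 8 were higher and 5 lower without overlap (17.7% and 28.6% of all genes); the 5 were Ccne1, Cdc20, Cenpe, Foxm1 and Mki67. Aurkb was not well above background on any SJW AOM array and was above it on 2 of 3 SJW tumours, with group means of 0.10 and 0.33 (adjusted p = 0.365), and no fold is given. The difference of the tumour change between diets was called for 0 of 31 genes and 0 of all genes by limma (1 and 1084 at an unadjusted p under 0.05), the 1 being Top2a at -0.67 ± 0.30.

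These counts moved with single arrays and with the scaling. On the control diet 6 to 9 genes were called on leaving out 1 array, 6 (5 higher, with Mki67 lower) without control tumour replicate 3, 7 without control tumour replicate 2 or control AOM replicate 3; on the SJW diet the count was 0 without SJW AOM replicate 2 or SJW tumour replicate 1 and 5 without SJW tumour replicate 2, and 1 without SJW AOM replicate 1 or SJW tumour replicate 3. The median change was 0.11 without control tumour replicate 3 and 0.13 without control AOM replicate 1, and on the SJW diet 0.06 without SJW tumour replicate 1. Centring on the array median gave 13 and 7 genes, all higher, and median changes of 0.52 and 0.46 in place of 0.22 and 0.18, while it moved the median of all genes from -0.06 to 0.11 and from -0.07 to 0.10. The deposited value table, whose columns were not centred, moved the median of all genes to 0.14 and 0.06.

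Against saline tissue, which sums both steps, 21 of 31 genes were higher in control tumours and 0 lower (13.2% of all genes higher, 19.7% lower), 9 of the 11 replication genes and 12 of the 19 mitosis genes. Without Aurkb it was 20 of 30, with 11 of 18 mitosis genes. Top2a was 3.25-fold higher, from -0.83, -0.37 and -0.72 after saline (1.70 ± 0.21, adjusted p = 2.28e-05). Mcm7, at -1.51, -1.11 and -1.15 after saline, was higher by 1.16 ± 0.15 (limma adjusted p = 4.02e-05). Cdk1 was higher by 1.14 ± 0.21, Plk1 by 1.09 ± 0.14 and Cdc6 by 1.06 ± 0.21. The Cdc6 probe was above background on 2 of 3 control saline arrays. Mcm3 doubled, to 1.29, 1.09 and 1.57 from 0.28, 0.49 and 0.18 (1.00 ± 0.16, adjusted p = 0.000274). Mki67 (-0.01 ± 0.21) and Foxm1 (-0.10 ± 0.21) were at the level of saline tissue within their errors on the probes used. The other probe of Mki67 was at 0.31. Groups did not overlap in 22 genes (21 without Aurkb), all higher (18.9% of all genes were higher without overlap and 24.3% lower). Aurkb, at 0.70 ± 0.17 with its probe above background on only 1 of 3 saline arrays, was at -0.21 with median centring, which also brought the median change of the 31 genes from 0.70 to 1.30.

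Aurka, Ccnb2, Kif11 and Birc5 passed against saline and not against AOM tissue. Aurka was at -0.49, -0.58 and -0.59 in control tumours (0.90 ± 0.15 over saline), and Ccnb2 at -1.42, -1.13 and -0.90 (0.54 ± 0.17). Kif11, the motor that pushes spindle poles apart, was at 0.59, 0.57 and 1.20 against 0.31, 0.11 and 0.05 after saline (0.63 ± 0.20, adjusted p = 0.0255). Among genes that did not pass, Ccna2, the A-type cyclin of S phase and mitosis, was at 0.76 ± 0.33, Bub1b at 0.56 ± 0.23, Cenpa at 0.57 ± 0.22, Ttk at 0.51 ± 0.25 and Mcm6 at 0.47 ± 0.19. Bub1 did not pass either, at 0.47 on the probe used, where the groups overlapped, and at 0.58 on its other probe. Mcm6 was at 0.42, 0.67 and 0.58 after saline, at 1.15, 1.5 and 0.86 in control AOM tissue and at 0.94, 1 and 1.16 in control tumours, so that the AOM and tumour arrays overlapped. Cdt1, at 1.07, 1.1 and 1.68 in control tumours, overlapped saline tissue (0.23 ± 0.26).

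In SJW tumours against SJW saline tissue 10 genes were higher and 1 lower (13.7% and 22.8% of all genes), 6 of the replication and 4 of the mitosis genes. Mcm3 was at 1.19, 0.76 and 0.98 in tumours and at 0.38, -0.09 and -0.02 after saline (0.88 ± 0.16, adjusted p = 0.000613), and Mcm7 (0.78 ± 0.15), Pcna (0.73 ± 0.14), Plk1 (0.71 ± 0.14), Aurka (0.66 ± 0.15), Cdk1 (0.75 ± 0.21), Top2a (0.79 ± 0.21), Cdc6, Mcm4 and Rrm1 were higher with it. Without overlap 13 genes were higher and 3 (Ccne1, Cdt1 and Mki67) lower (20.1% and 30.5% of all genes). The gene that fell was Ccne1. These comparisons with saline share arrays with those above and add no independent evidence. The median change of 0.33 was 0.75 with median centring, with 18 genes higher.

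Marker lists moved strongly between tumour and non-tumour tissue. Against control AOM tissue, all 10 epithelial markers and 11 of 13 smooth muscle markers fell (medians -1.05 and -2.86), and all 6 measured crypt stem cell markers rose (median 1.04). On the SJW diet 9 of 10, 9 of 13 and 6 of 6 did (medians -1.08, -2.18 and 1.72). Markers of germinal centre B cells, a lymphoid population that divides fast, had medians of -0.32 and -0.25, with 1 of 6 called lower on each diet. The part of these cells in the results on cell cycle genes was not tested.

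**Figure D3:**
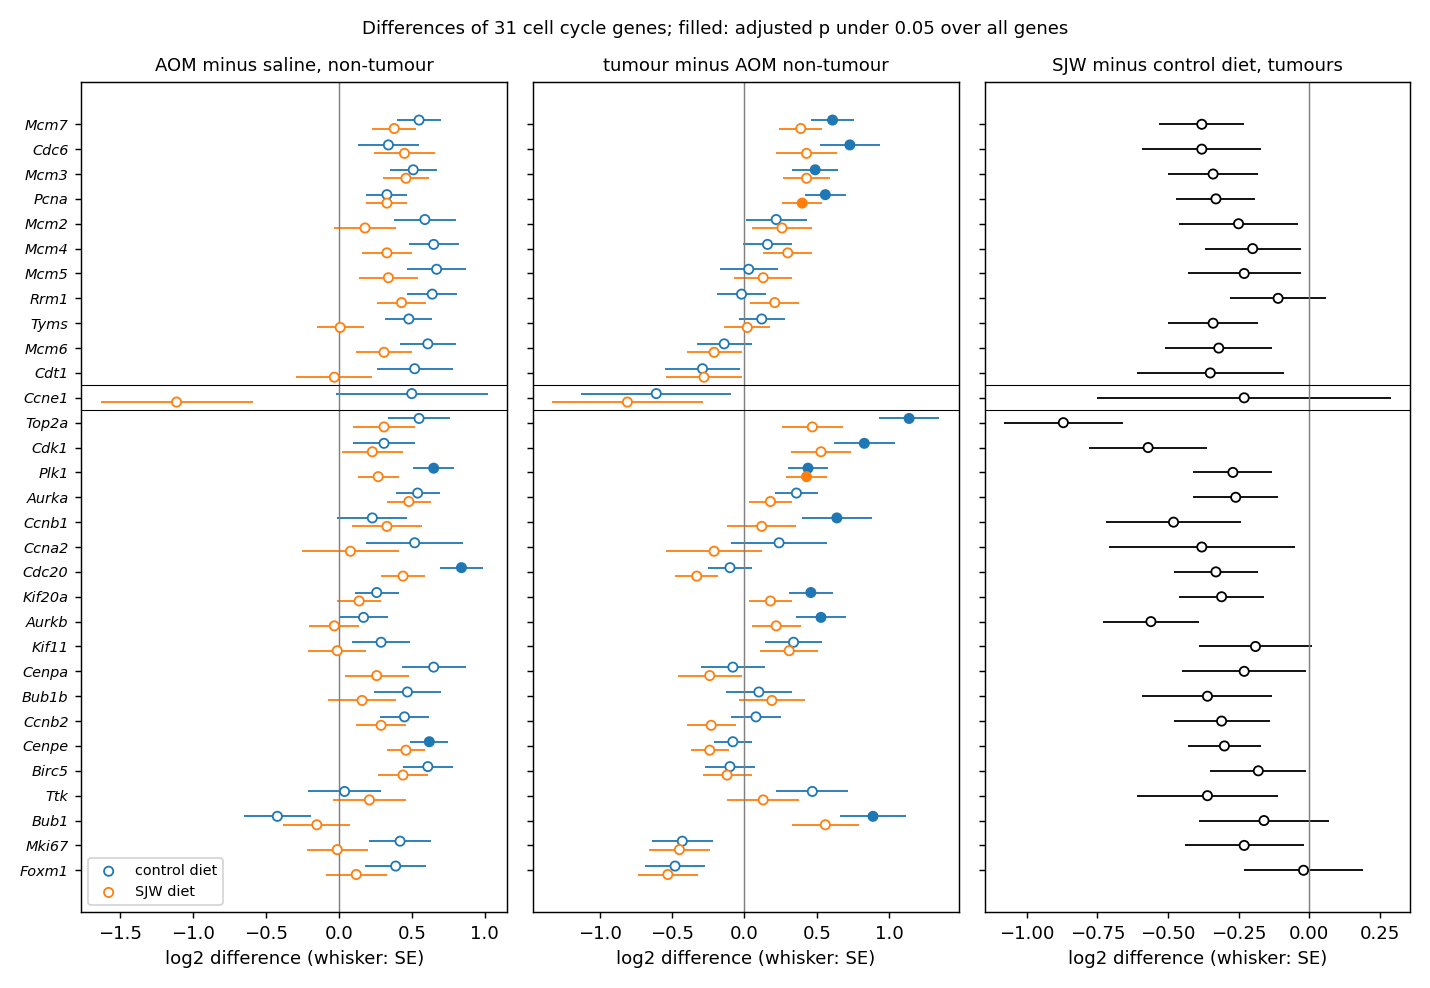
Log2 differences (x axis, whisker SE) of 31 genes after AOM (left), in tumours against AOM tissue (middle), on the control diet (blue) and the SJW diet (orange), and of SJW against control diet in tumours (right); filled points have an adjusted p under 0.05 over all genes. Replication genes stand at the top, then Ccne1, then mitosis genes; in the right panel all 31 points lie below 0, none filled.

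**Figure D4:**
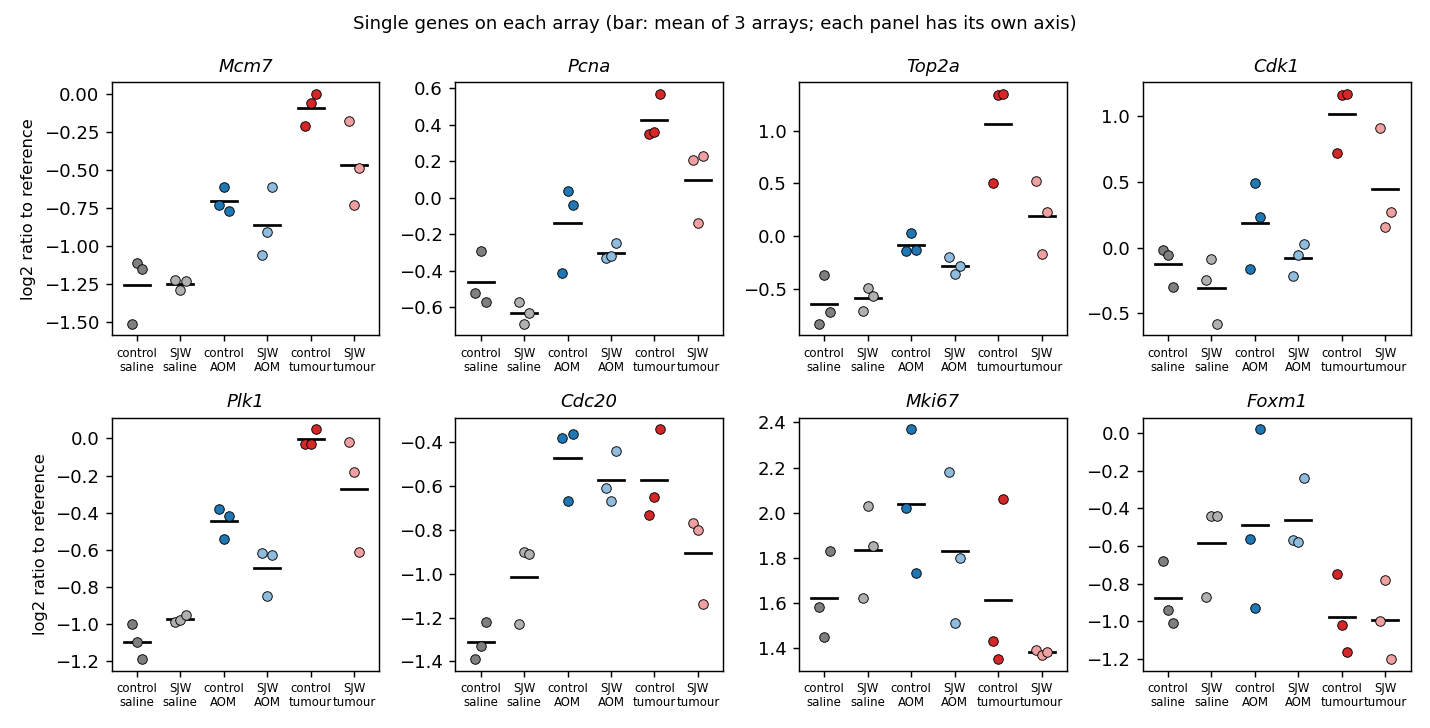
Log2 ratio to the reference (y axis, a scale for each panel) of 8 genes on each array in 6 groups (x axis), bars being means of 3 arrays. Mcm7, Pcna, Cdk1 and Plk1 are highest in control tumours, Cdc20 is as high after AOM as in control tumours, and Mki67 and Foxm1 are highest on single AOM arrays, at 2.37 and 0.02.

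The replication and mitosis classes were set against each other as the mean change of the mitosis genes minus that of the replication genes. After AOM the mean changes were 0.40 and 0.53 on the control diet and 0.21 and 0.29 on the SJW diet, a difference of -0.14 and -0.08. In tumours against AOM tissue the mitosis mean was 0.28 and the replication mean 0.23 on the control diet (difference 0.05), and 0.05 and 0.19 on the SJW diet (-0.14). In tumours against saline the difference was -0.08 on the control diet and -0.22 on the SJW diet, and between diets it was 0.09 after saline, 0.15 after AOM and -0.04 in tumours. Each of these 9 differences was smaller than the pooled SD between arrays, which was 0.11 to 0.23. A setting with both classes narrowed was planned, and one with replication alone narrowed was added after the data were seen. With replication alone narrowed, to the 8 measured Mcm, Pcna and Rrm genes, 4 of the 9 exceeded their SD. These were tumours against saline on the SJW diet (-0.32, SD 0.22) and on the control diet (-0.13, SD 0.11), SJW tumours against AOM tissue (-0.19, SD 0.16) and SJW against control diet after AOM (0.16, SD 0.14). Only in control tumours against saline did the arrays of these 4 not overlap, with mitosis minus replication levels of -0.52 to -0.49 in tumours and -0.48 to -0.19 after saline. Narrowing the class moved each difference by less than its SD between arrays, and exceeding the SD is not a test. Whether the classes differ is thus not settled here, and no p is given since members are not replicates.

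Changes of single genes covered a range within each class. These ranges are a description and are not compared with the gap between class means. In control tumours against AOM tissue the mitosis genes ranged from -0.48 (Foxm1) to 1.14 (Top2a), and the replication genes from -0.29 (Cdt1) to 0.73 (Cdc6). After AOM on the same diet the ranges were -0.42 (Bub1) to 0.84 (Cdc20) and 0.33 (Pcna) to 0.67 (Mcm5). Top2a, Cdk1, Bub1, Ccnb1, Kif20a and Plk1, which rose in tumours over AOM tissue, include only 1 of the 3 mitosis genes that rose after AOM, Plk1. Among the replication genes, Mcm3, Mcm7, Pcna and Cdc6 rose in tumours over AOM tissue, while Mcm2, Mcm4, Mcm5, Mcm6 and Rrm1, with changes of 0.59 to 0.67 after AOM, did not. The 2 steps share the control AOM arrays, so a high AOM array lowers the second change as it lifts the first.

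Ccne1, which encodes cyclin E1, the partner of Cdk2 at the start of S phase, had 2 probes that differed in sign in tumours. On the probe that was brighter over all arrays and was used SJW saline arrays were at 1.37, 2.09 and 4.05, with a red intensity of 4528.5 on the array at 4.05 against 230 to 1197 on the other 17. SJW tumours were at 0.57, 0.79 and 0.36, and the change against SJW saline was -1.93 ± 0.52 (adjusted p = 0.00815). Without SJW saline replicate 3 it was -1.16 (adjusted p = 0.0378). On the other probe SJW saline arrays were at -0.16, -0.29 and -0.05 and SJW tumours at 0.38, 0.22 and 0.37, higher by 0.49 ± 0.16 (adjusted p = 0.0246 over all probes). That probe was also higher in control tumours than in control saline tissue (0.80 ± 0.16, adjusted p = 0.00133), where the brighter probe had -0.10. These arrays leave the direction of Ccne1 in tumours unsettled.

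**Figure D5:**
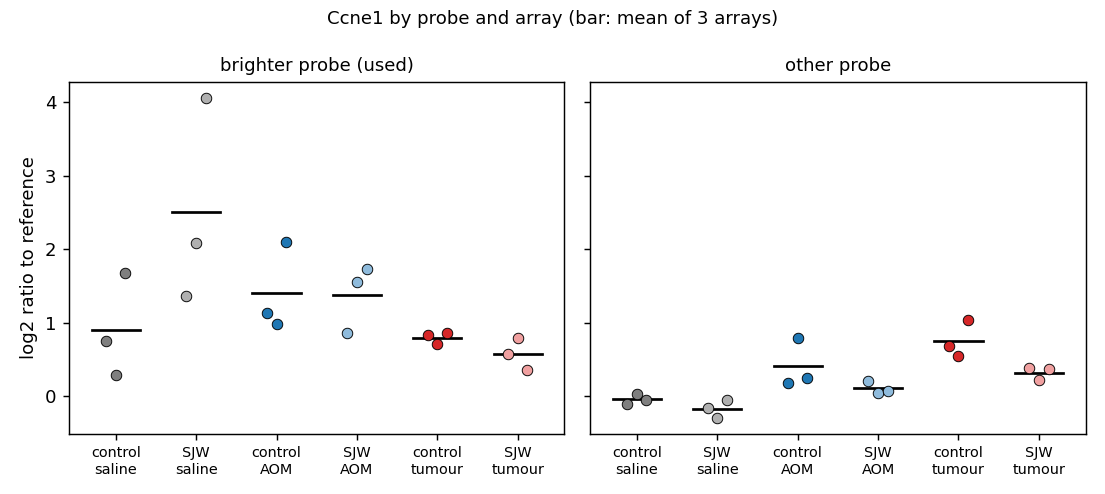
Log2 ratio of Ccne1 (y axis) on each array for its brighter probe (left) and its other probe (right), in 6 groups (x axis), with bars at means of 3 arrays. The brighter probe reaches 4.05 on SJW saline replicate 3 and is 0.36 to 0.86 in tumours, while the other probe is highest in control tumours, at 0.55 to 1.04.

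More than 1 probe was found for 10 of the 31 genes. Both probes of Top2a were higher in control tumours than in AOM tissue (1.14 and 1.59), as were the 2 of Kif11 (0.34 and 0.69), of Cdc6 (0.25 and 0.73) and of Bub1 (0.30 and 0.89), and the 3 of Ccnb1 (0.64 to 0.96). After AOM on the control diet, Cenpe had 3 positive changes of 0.18 to 0.62, of which that of the brightest probe was called; with the mean of its probes the change was 0.35 (adjusted p = 0.284). In control tumours against saline the Cenpe probes ranged from -0.47 to 0.54.

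SJW was compared with the control diet within each kind of tissue, and 0 of the 31 genes passed in any of the 3 comparisons, as did 0 of all genes (0% higher and 0% lower) by limma, with 2799, 836 and 1556 of all genes at an unadjusted p under 0.05 after saline, after AOM and in tumours. After saline 1 of the 31 was at an unadjusted p under 0.05, Ccne1 at 1.60 ± 0.52, and the median change was 0.03, which was 0.36 with median centring. Plk1 was higher and Pcna lower without overlap there (8.36% and 5.77% of all genes). After AOM it was 0 of 31, with a median of -0.16 and 26 negative changes, and all 11 replication genes were negative. Within the 3 slides the replication median was -0.20, -0.70 and -0.02, most negative on the second slide. That slide holds control AOM replicate 2, the only array of this comparison with a bright reference channel (median 593). Its part in the negative changes was not tested. No gene was higher and 5 were lower without overlap (3.45% and 5.76% of all genes): Bub1b, Mcm3, Plk1, Rrm1 and Top2a. Top2a differed by -0.20 on the probe used and by 0.21 on its other probe.

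In tumours all 31 changes were negative on the SJW diet, from -0.87 ± 0.21 for Top2a (adjusted p = 0.548) to -0.02 for Foxm1, with a median of -0.31 against 0.01 over all genes. Of these 7 (6 without Aurkb) were at an unadjusted p under 0.05: Top2a, Aurkb, Cdk1, Mcm7, Cenpe, Pcna and Cdc20. Top2a was at 0.50, 1.34 and 1.35 in control tumours and 0.52, -0.17 and 0.23 in SJW tumours, Aurkb at 0.58, 0.98 and 1.12 and at 0.47, 0.17 and 0.34, and Cdk1 at 0.72, 1.16 and 1.17 and at 0.91, 0.16 and 0.27. Top2a and Cdk1 overlapped between the groups, and Aurkb was read on the dim probe that only control tumours carried through the filter. In all, 10 genes (9 without Aurkb) were lower and 0 higher without overlap (5.02% and 5.44% of all genes). SJW tumour replicate 1 lay near the control tumours in Top2a and Cdk1, and near the lowest of them over the whole list. Its mean over the 31 genes was 0.34, as on control tumour replicate 1. SJW tumour replicates 2 and 3 were at 0.09 and 0.08.

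The difference between the tumour groups was read on each of the 2 slides. On the slide with replicates 1 and 2 of both groups the median change was -0.15, with 27 of 31 genes lower, and on the slide with replicate 3 of both it was -0.56, with all 31 lower. Control tumour replicate 3 had the brightest reference channel of the 18 arrays, and without it the median was -0.21, with 29 genes lower. With the red channel alone 28 of 31 were lower at a median of -0.33. Smooth muscle (12 of 13 positive, median 0.24) and fibroblast markers (10 of 10 positive, median 0.35) leaned the other way in SJW tumours, with 0 called and 0 and 1 at an unadjusted p under 0.05, and epithelial markers had a median of -0.05; their part was not tested.

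Other genes of the cell cycle were counted in 4 lists beside the 31. After AOM on the control diet 1 of 35 measured replication genes rose (Prim2, a primase subunit, 0.64 ± 0.13), 1 of 55 mitosis genes (Cks1b, a subunit of Cdk complexes, 1.05 ± 0.17) and 1 of 15 genes of the G1 to S transition (E2f2, 1.30 ± 0.17, adjusted p = 0.00557), with 0 lower in each. Their medians were 0.29, 0.31 and 0.16, and that of 15 genes that restrain the cycle was 0.04, with 0 called. Of these 15 genes 3 were at an unadjusted limma p under 0.05 (20%, against 13.6% of all genes). On the SJW diet 0 of each of the 4 lists were called after AOM. At an unadjusted limma p under 0.05 were 8, 11, 4 and 5 (22.9%, 20%, 26.7% and 33.3%). Of all genes 19.3% were, and the shares of the replication and mitosis lists were near it.

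In control tumours against AOM tissue 5 of 35 replication genes rose and 2 fell, and 13 of 55 mitosis genes rose and 1 fell, beside 12.7% of all genes higher and 19.5% lower. The share of replication genes that rose was thus near that of all genes. Gins2, a part of the replicative helicase, rose by 0.75 ± 0.17 and Orc1, which marks origins, by 0.58 ± 0.17, while Slbp, which binds histone messages, fell by 0.42 ± 0.12. Mad2l1, a spindle checkpoint protein, rose by 1.12 ± 0.23, Cenpm by 0.90 ± 0.22 and Cdca3 by 0.70 ± 0.18, and Smc4, a condensin subunit, fell by 0.51 ± 0.16. On the SJW diet the counts were 1 higher and 1 lower of 35, and 3 higher and 1 lower of 55, each a smaller share than among all genes (9.19% higher, 15.5% lower), with Mad2l1 at 1.22 ± 0.23 and Cks1b at 0.67 ± 0.17.

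Among 15 genes around the G1 to S decision, 3 rose and 1 fell in tumours over AOM tissue on each diet, beside 12.7% of all genes higher and 19.5% lower on the control diet and 9.19% and 15.5% on the SJW diet; with 15 genes this count is not read as a result about the list. Cdk4, the kinase partner of D cyclins, was higher in control tumours by 1.57 ± 0.21 (adjusted p = 6.08e-05) and in SJW tumours by 1.39 ± 0.21 (adjusted p = 0.000233). Tfdp1, the partner of E2F factors, rose by 0.67 ± 0.17 and 0.58 ± 0.17. E2f2 fell by 0.96 ± 0.17 and 0.77 ± 0.17; after AOM it had passed the test on the control diet and not on the SJW diet. Myc, a driver of cell growth, was the other gene that rose, by 1.1 ± 0.27 and 0.84 ± 0.27.

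Among 15 genes that restrain the cycle 7 fell and 1 rose in control tumours, and 4 fell and 1 rose in SJW tumours, beside the same shares of all genes. Btg1, an antiproliferative gene, fell by 1.07 ± 0.14 and 0.63 ± 0.14, and Cdkn2b, which encodes the Cdk4 inhibitor p15, fell by 1.12 ± 0.20 and 1.07 ± 0.20. The retinoblastoma gene Rb1 fell by 0.93 ± 0.14 in control tumours and Cdkn1b (p27) by 0.65 ± 0.14 in SJW tumours. Genes are named by the smallest p within each diet, so this naming does not mark a difference between the diets. Cdkn1c (p57), another Cdk inhibitor, rose by 2.26 ± 0.31 in SJW tumours (adjusted p = 9.87e-05). Against saline tissue Cdk4 was higher by 1.72 ± 0.21 and 1.65 ± 0.21, and Cdkn1c by 1.06 ± 0.31 and 1.93 ± 0.31 on the control and SJW diets. Between the diets 0 of these 4 lists were called in any tissue by limma. At an unadjusted p under 0.05 were 8, 13, 0 and 1 of their genes in tumours, 1, 3, 1 and 0 after saline, and 1, 2, 2 and 3 after AOM. Of all 26073 genes 1556, 2799 and 836 were in tumours, after saline and after AOM. In tumours the medians of the other replication, other mitosis and G1 to S genes were -0.24, -0.28 and -0.27, and that of the restraining genes 0.03.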

How the data were processed

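RNA of 18 intestine samples was measured on 18 two-colour Agilent arrays, per the labels with sample RNA in Cy5 and the reference in Cy3. Per the file headers, images were read with Agilent Feature Extraction 10.10.1.1. Spot and local background intensity are given as the median over pixels in the deposited scanner output. The deposited log10 ratio is the software's processed red over green, per the file headers. The deposited log2 values cover 35491 entries, which matched the log2 of that ratio with a slope of 1 on each array; its columns were not centred (medians of -0.031 to 0.342).

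Mean intensities were planned, and medians took their place. Background was corrected with normexp (offset 50), log2 ratios were normalized by loess within arrays with control spots at weight 0, population outliers were left out, and spots of a probe were averaged. A probe was kept (34081 were) if at least 1 group had it well above background in its sample channel on each of 3 arrays. Names came from RefSeq accessions (GRCm38.p6, names only), and the brightest of a gene's kept probes was used. limma 3.58.1 (R 4.3.3) was fitted to 18 arrays with 12 residual degrees of freedom, and p-values were adjusted by Benjamini and Hochberg over 26073 genes in each comparison, with a threshold of 0.05. The fit was tested on simulated data. All members are named, and of the 4 lists of other cell cycle genes up to 3 higher and 3 lower with the smallest p; the text gives a part of these. Members and lists were chosen with earlier results of these data known. Per the file headers same-numbered arrays of all non-tumour groups share a slide. Their deviations from the group means correlated above 0.1 in all 3 pairs in SJW against control diet after saline alone (0.17, 0.41 and 0.36). In AOM against saline on the SJW diet the values were 0.31, 0.11 and 0.03. Precision is limited by the number of arrays. The alternatives tried are given at the end.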

Additional observations from a re-analysis of the deposited data

How the results depend on the processing

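Counts of called genes among the 31 are given first. After AOM on the control diet, 3 genes passed; the count was 8 with median centring, 1 with the red channel alone, 0 with only the groups compared in the fit, 1 with the replicate block, 1 with slide as a block and 7 with reference brightness as a block. In tumours against AOM tissue on the control diet, 11 passed and 5 did with only the groups compared. On the SJW diet, 2 passed; the count was 7 with median centring, 8 with the scanner software's log ratio, 1 with a normexp offset of 10, 10 (9 of them higher) with the red channel alone, 6 with the deposited value table, 1 with the replicate block and 5 with reference brightness as a block; the 3 found with only the groups compared (Bub1 higher, Ccne1 and Foxm1 lower) shared 0 genes with the 2. In SJW tumours against saline 11 passed, and 19 with median centring. Aurkb in control tumours against saline turned from 0.70 to -0.21 with median centring; the cause was not tested. Other counts under these settings stayed within 1.5 times. Slide as a fixed block could not be fitted between tumour and non-tumour tissue, Cdc20 had no value from the deposited value table, and Aurkb and Cdc6 had none when signal above background was required on all 18 arrays. The replicate block changed no other count beyond that. Same-numbered arrays share a slide in all non-tumour groups. They correlated above 0.1 in all 3 pairs only in SJW against control diet after saline, where 0 passed with and without the block.

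The mitosis minus replication difference in control tumours against saline was 0.05 with the scanner software's log ratio, 0.04 with the red channel alone and 0.09 with the deposited value table, in place of -0.08, and in SJW tumours against AOM tissue it was 0.04 with the deposited value table, in place of -0.14; other settings, the narrower replication class among them, moved each difference by less than the SD between arrays.

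Leaving out 1 array gave 0 to 2 called genes after AOM on the control diet and 0 to 1 on the SJW diet, 6 to 9 and 0 to 5 in tumours against AOM tissue, 17 to 22 and 10 to 13 in tumours against saline (control and SJW diet), 0 between diets after saline or AOM, 0 to 1 in tumours (Top2a), and 0 for both differences of changes between diets. The mitosis minus replication difference ranged from -0.23 to -0.01 and -0.20 to 0.04 after AOM, -0.08 to 0.15 and -0.24 to -0.02 in tumours against AOM tissue, -0.14 to 0.01 and -0.34 to -0.10 in tumours against saline, and -0.02 to 0.21, 0.02 to 0.24 and -0.14 to 0.07 between diets after saline, after AOM and in tumours. Of 48 called changes of single genes, 515 of 565 values under other settings and 227 of 288 with 1 array left out kept direction and call. Dim signal limits Aurkb, above background on 8 of 18 arrays, and to a lesser degree Cdc6, above it on 15 of 18.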
